A study of Mus musculus with 4 samples.

Results

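The accessible chromatin of beige adipocytes carrying a demethylase-dead JMJD1A was compared with that of normal beige adipocytes, both on day 8 of differentiation. The members are the peaks of the 2 day 8 lists on chromosomes 1 to 19, 47794 in the mutant (HY D8) and 40226 in the wild type (WT D8), which is 88020 of the 239709 peaks on these chromosomes in the whole series. Accessibility was measured by ATAC-seq, in which a transposase cuts open DNA and the cut fragments are sequenced, and each peak is a stretch where fragments pile up above the local background. A peak overlapping a peak of the other list by at least 1 bp was called in both lists, and a peak with no such partner was called HY-only or WT-only. Each group is 1 library, so no test between the genotypes was possible, and all intervals given are 95% intervals that cover counting error only.

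The cells are im-scWAT cells, stromal vascular cells of the subcutaneous white fat of 5-week-old mice that were immortalised with a retrovirus carrying the SV40 large T antigen. The WT cells have the genotype Jmjd1a +/+ and the HY cells Jmjd1a HY/HY, and the large T antigen is shared by all 4 libraries. Day 8 (D8) cells had been differentiated to beige adipocytes with indomethacin, dexamethasone, IBMX, rosiglitazone, insulin and T3 for 2 days, followed by insulin, T3 and rosiglitazone for 6 days. Day 0 (D0) cells are the same lines before differentiation and serve here to show which day 8 sites were already open. Each genotype is represented by 1 immortalised line, so that the genotype and the line cannot be told apart.

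JMJD1A, encoded by Kdm3a, removes methyl groups from lysine 9 of histone H3, a mark of closed chromatin. Beige adipocytes arise in white fat, are rich in mitochondria and burn fuel as heat through UCP1. As preadipocytes differentiate, sites bound by AP-1 and TEAD factors typically lose accessibility, whereas sites bound by C/EBP factors, PPARγ, EBF2 and NFI gain it.

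The strength of a peak is given as its summit pileup, the number of fragments over its highest point, which was solved from the deposited fold enrichment and p-value. The genome-wide background was 0.494 fragments in HY D8 and 0.531 in WT D8, so that the depth of HY D8 was 0.931 times that of WT D8. The lowest pileup that could be called at that background was 4 in HY D8 and 5 in WT D8. Fat cell markers were open in both libraries. The promoter pileup was 26 in WT D8 and 25 in HY D8 at Adipoq, the gene of the adipokine adiponectin, and 46 in both at Fabp4, a fatty acid carrier, and neither promoter had a peak on day 0. None of the promoters of 8 macrophage genes and 6 neuronal genes held a peak in either day 8 list. Among 8 skeletal muscle genes Des and Acta1 held a promoter peak in WT D8 alone (pileup 10 at each), and among 8 endothelial genes Flt1 did in WT D8 (11) and Kdr in HY D8 (4).

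A few of the 10 strongest sites of each class are shown first as sequence, picked after their values and motif matches were seen. Each is the 201 bases around the summit on the plus strand of mm9, and the capitals mark matches to the motif letters described with the motif results. The first sequences are HY-only sites. They lie in introns of Smyd3, a lysine methyltransferase gene (chr1:181407401-181407601), of Auts2, a chromatin regulator gene known from brain development (chr5:132805194-132805394), and of Npas2, a clock transcription factor gene (chr1:39313465-39313665).

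Smyd3 intron, HY-only: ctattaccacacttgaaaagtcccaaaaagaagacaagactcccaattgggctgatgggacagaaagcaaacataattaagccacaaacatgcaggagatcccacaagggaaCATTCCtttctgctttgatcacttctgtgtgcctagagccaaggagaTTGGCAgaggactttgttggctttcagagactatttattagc

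Auts2 intron, HY-only: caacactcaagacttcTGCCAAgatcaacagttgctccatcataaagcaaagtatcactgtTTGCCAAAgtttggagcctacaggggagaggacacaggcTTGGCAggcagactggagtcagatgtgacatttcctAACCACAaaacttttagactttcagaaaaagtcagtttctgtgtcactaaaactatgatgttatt

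Npas2 intron, HY-only: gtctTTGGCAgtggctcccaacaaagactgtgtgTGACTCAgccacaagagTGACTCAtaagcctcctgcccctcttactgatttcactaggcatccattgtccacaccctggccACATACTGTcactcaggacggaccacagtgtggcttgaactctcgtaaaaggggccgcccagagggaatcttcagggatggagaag

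The next sequences are WT-only sites, at -29.3 kb from the start of Irx2, an Iroquois homeobox gene (chr13:72736761-72736961), and at -107.1 kb from that of Ly86 (chr13:37329938-37330138), a minus sign meaning upstream. The last is an intron of Fam189a1 (chr7:72240388-72240588), the site whose interval lay farthest above the median ratio among sites where 1 peak matched 1 peak. Its window is centred on the WT D8 summit.

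Irx2 upstream, WT-only: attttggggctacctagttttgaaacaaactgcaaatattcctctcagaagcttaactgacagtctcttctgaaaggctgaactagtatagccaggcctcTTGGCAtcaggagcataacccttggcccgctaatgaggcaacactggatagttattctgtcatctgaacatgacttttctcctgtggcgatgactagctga

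Ly86 upstream, WT-only: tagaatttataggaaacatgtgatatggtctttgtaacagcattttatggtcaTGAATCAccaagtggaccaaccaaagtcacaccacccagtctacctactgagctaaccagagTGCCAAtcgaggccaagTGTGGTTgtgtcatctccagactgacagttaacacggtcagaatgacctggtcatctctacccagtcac

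Fam189a1 intron, higher in HY: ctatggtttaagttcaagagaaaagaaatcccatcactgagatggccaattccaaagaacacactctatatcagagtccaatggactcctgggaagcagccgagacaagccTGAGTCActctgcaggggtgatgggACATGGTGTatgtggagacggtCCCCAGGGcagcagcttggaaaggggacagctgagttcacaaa

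The Npas2 site held 2 separate AP-1 matches, an NFI half-site and a glucocorticoid receptor match, and the Smyd3 site a TEAD match and an NFI half-site. The Auts2 site held a C/EBP match, NFI half-sites and a RUNX match. The Irx2 site held an NFI half-site, and the Ly86 site AP-1, NFI and RUNX matches.

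The first question was which sites were open in 1 genotype only. HY-only peaks numbered 14506, which is 30.4% of HY D8 peaks (interval 29.9% to 30.8%), and WT-only peaks numbered 5524, which is 13.7% of WT D8 peaks (13.4% to 14.1%). Both classes were made of weak peaks. The median summit pileup was 7 in HY-only peaks and 9 in WT-only peaks, against 17 (HY) and 16 (WT) in peaks called in both lists. The median width was 138 bp in HY-only and 122 bp in WT-only peaks, against 305 bp and 258 bp in the peaks of both lists. Of HY-only peaks 353 (2.43%) had a −log10 q of 10 or more, and of WT-only peaks 86 (1.56%).

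**Figure D1:**
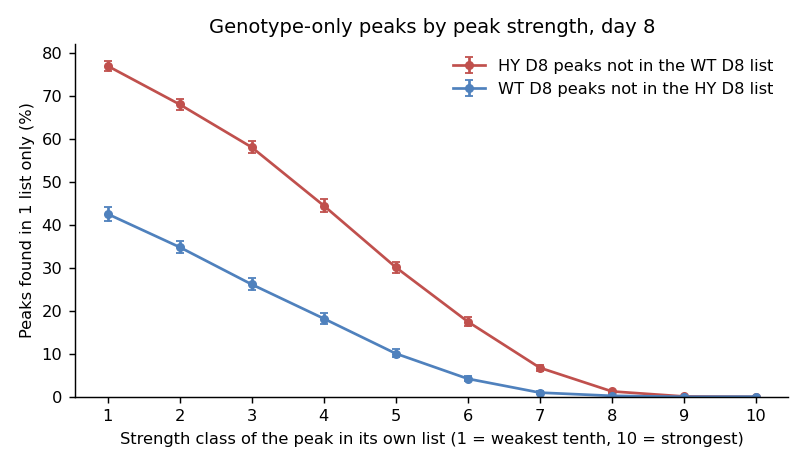
Share of peaks found in 1 list only (y axis, %) in each strength class of 10 classes by −log10 q within the peak's own list (x axis), for HY D8 (red) and WT D8 (blue), with 95% binomial intervals. The share falls from 77.1% to 0% in HY D8 and from 42.6% to 0.0249% in WT D8.

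The share of peaks found in 1 list only fell steeply with strength, as the plot by strength class shows. In HY D8 it was 77.1% in the weakest of 10 strength classes, 30.2% in the fifth and 0 of 4780 peaks in the strongest, which allows up to 0.0771%. In WT D8 it was 42.6% in the weakest class, 10.1% in the fifth and 1 of 4023 peaks in the strongest. At equal pileup the HY-only share was still the higher one. Of peaks with a pileup of 7 to 9 it was 54.7% (53.7% to 55.7%) in HY D8 and 32.3% (31.3% to 33.3%) in WT D8, and of peaks with a pileup of 13 to 19 it was 14.5% and 7.67%. The size of the excess depended on the length of the lists. With both cut to the 40226 strongest peaks, 22.2% of HY D8 and 18.5% of WT D8 peaks were found in 1 list only.

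Many WT-only peaks lay beside a mutant peak. The nearest peak of the other list was a median of 3.13 kb away from WT-only and 9.57 kb away from HY-only peaks. Within 500 bp of one were 28.6% of WT-only and 17.4% of HY-only peaks. The 2 strongest WT-only peaks lay near a HY peak. The promoter peak of the non-coding gene Gm16046 on chromosome 17 (pileup 43) lay 0.621 kb from a HY peak, and the peak 39.1 kb from the start of Azin1 (29) lay 0.341 kb from one. The 10 strongest HY-only peaks lay between 8.78 kb (an intron of Lmtk2) and 1464 kb (an intron of Dbc1) from the nearest WT D8 peak, and the 10 strongest WT-only peaks between 0.120 kb (Taf6) and 164.1 kb (nearest to the start of Gm15891) from the nearest HY D8 peak.

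The 10 strongest HY-only sites (by −log10 q) fell into 3 patterns on day 0. The Smyd3 intron (pileup 20 in HY D8) was open in both genotypes before differentiation, at 42 in WT and 45 in HY. The Npas2 intron (18) had 46 and 44 on day 0, the Prdm10 intron (19) 15 and 16, and the site at -131.3 kb from the start of Gdi2 (17) 13 and 14. These 4 sites were thus called in both lines on day 0 and in HY alone on day 8. The stronger Auts2 intron site (22) had 16 in HY D0 and no peak in WT D0. A site at -457.7 kb from the start of Dab2 (22) had 24 in HY D0, and the promoter of C330013J21Rik (18) had 33, again with no peak in WT D0. These 3 sites were called in HY alone on both days. The sites in introns of Dbc1 (19), Lmtk2 (17) and Auts2 (17 at its second site) had no peak in either day 0 list.

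Of the 10 strongest WT-only sites, 6 were in both day 0 lists, 1 in WT D0 alone and 3 in neither. The site 26.0 kb from Pard6b, a cell polarity gene, had a pileup of 21 in WT D8, and 17 (WT) and 18 (HY) on day 0. The site 271.2 kb from Rnd3 had 18 in WT D8, and 28 (WT) and 15 (HY) on day 0. The promoter of Taf6, a subunit of the general transcription factor TFIID, had 21 in WT D8, 32 in WT D0 and 21 in HY D0, and lay 0.120 kb from a HY D8 peak. The site upstream of Irx2 (15), that at -35.6 kb from Pabpc1 (26) and the Papola intron (17) had no day 0 peak in either line. The Pabpc1 site lay 0.445 kb from a HY D8 peak, the Papola site 4.87 kb and the Irx2 site 28.9 kb.

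Over all members HY-only sites were more often open on day 0 than WT-only sites. In both day 0 lists were 55.0% (54.2% to 55.8%) of HY-only and 46.6% (45.3% to 48.0%) of WT-only peaks, against 76.8% of WT D8 peaks in both day 8 lists. In neither were 33.8% and 39.4%. Among peaks with a pileup of 7 to 12 the shares in both day 0 lists were 57.1% of HY-only, 47.3% of WT-only and 66.4% of shared WT D8 peaks. In the HY D0 list alone were 7.83% of HY-only and 7.69% of WT-only peaks, and in the WT D0 list alone 3.43% and 6.32%. Of WT D8 peaks in both day 8 lists 2.97% were in the HY D0 list alone and 2.37% in the WT D0 list alone, the HY D0 list being the longer one.

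By annotation the genotype-only sites were mostly distal. A promoter (the window from 1000 bp before to 100 bp after an annotated start) held 10.8% (10.3% to 11.3%) of HY-only peaks and 14.6% (13.6% to 15.5%) of WT-only peaks, against 33.4% and 34.3% of the peaks in both lists. Introns held 44.4% and 44.2%, and intergenic DNA 39.9% and 34.7%. Most of the gap to the shared peaks went with strength. At a pileup of 7 to 12 promoters held 10.2% of HY-only and 13.9% of shared HY D8 peaks, and 13.5% of WT-only and 15.1% of shared WT D8 peaks.

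At the level of genes, 11006 of 21281 protein-coding genes had a promoter peak in both libraries, 502 (2.36%) in HY D8 alone and 256 (1.203%) in WT D8 alone. These promoters were weak, with a median pileup of 7 in HY D8 and 9 in WT D8. Of the 502, 386 (76.9%) had a promoter peak in both day 0 lists, and of the 256, 176 (68.8%) did. The genes named next were chosen after their values were seen. Promoter peaks in HY D8 alone included Ddit4l, a stress-induced gene (pileup 16 on day 8, and 12 and 24 on day 0 in WT and HY), Cyp27a1, a sterol hydroxylase gene (17, and 13 in both on day 0), and Trem2, a myeloid receptor gene (13, with no peak on day 0). Those in WT D8 alone included Plin5, a lipid droplet protein gene (23, with no peak on day 0), and H2-T24, an MHC class I gene (19 on day 8, and 33 and 9 on day 0).

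What the genotype-only sites shared beyond strength was sought in their sequence. To this end 10 patterns were searched on both strands in the 201 bases around each summit, each counted on its own so that matches could overlap. They were AP-1 (TGANTCA), TEAD (GGAATG), RUNX (TGTGGTT), C/EBP (TTGCNNAA), EBF (CCCNNGGG), an NFI half-site (TTGGCA), the CTCF core (CAGNGGGC), ETS (CCGGAAGT), a glucocorticoid receptor pattern (ACANNNTGT) and the DR1 half-site of PPAR:RXR with its spacer (CAAAGGTCA). AP-1 letters stood in 18.5% of HY-only and 11.6% of WT-only windows, against 14.5% of all HY D8 and 12.3% of all WT D8 windows. TEAD letters stood in 16.6% and 12.5%, against 13.5% and 12.1%, and RUNX letters in 5.8% and 4.0%, against 4.5% and 3.9%. C/EBP letters stood in 14.04% and 14.5%, against 13.6% and 13.3%, and NFI half-sites in 18.2% and 16.5%, against 16.7% and 15.96%. For EBF letters the HY-only share was the lower one, at 9.83% and 12.6% against 12.3% and 13.3%. For the CTCF core it was lower too, at 6.72% and 8.44% against 8.36% and 9.13%. Glucocorticoid receptor letters stood in 6.78% and 6.23%, against 5.58% and 5.15%, ETS letters in 0.276% and 0.489%, against 1.92% and 2.31%, and PPAR:RXR letters in 0.489% and 0.561%, against 0.492% and 0.457%. A match to these letters is a description of the window and does not show that a factor was bound.

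The higher AP-1 share of HY-only sites was found at sites that were already open on day 0. Shared sites here were WT D8 peaks taken by their WT pileup, while HY-only sites were taken by their HY pileup. Among sites with a pileup of 7 to 12 that were in both day 0 lists, AP-1 letters stood in 26.8% (25.5% to 28.1%) of 4324 HY-only windows, 19.5% (18.6% to 20.4%) of 7402 shared windows and 15.5% (13.8% to 17.2%) of 1829 WT-only windows. TEAD letters followed the same order at 19.2%, 15.5% and 13.1%, and RUNX letters at 7.28%, 5.61% and 4.32%, with the shared and WT-only intervals overlapping for both. NFI half-sites stood at 15.5%, 15.4% and 12.8%, with the HY-only and shared intervals overlapping. C/EBP letters stood at 9.97%, 11.3% and 10.4% and EBF letters at 9.37%, 11.8% and 11.2%, and the HY-only and WT-only intervals overlapped for both. Among sites in neither day 0 list AP-1 letters stood in 7.58%, 7.79% and 7.37%, with overlapping intervals. There C/EBP letters stood in 22.2% of HY-only, 26.2% of shared and 22.3% of WT-only windows, and NFI half-sites in 23.6%, 26.3% and 20.9%. For both motifs the intervals of HY-only and WT-only sites overlapped, and the share was highest at sites called in both genotypes. For NFI half-sites the HY-only and shared intervals overlapped too. The higher AP-1 share was also found where no peak of the other list lay within 500 bp, at 20.3% of HY-only and 12.9% of WT-only windows. HY D8 peaks could be called at a lower pileup than WT D8 peaks, and the part of this in the shares was not tested beyond the comparison within a pileup range.

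**Figure D2:**
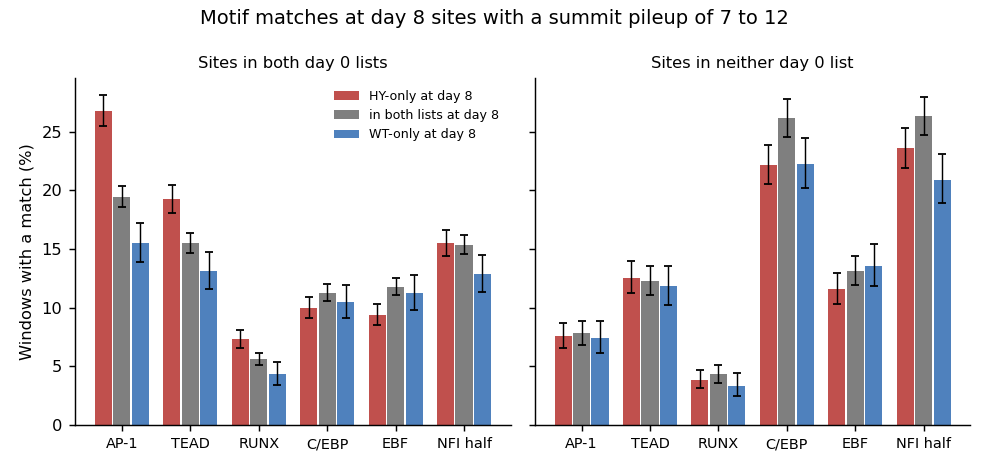
Share of 201-bp windows holding a match (y axis, %) for each of 6 motifs, in HY-only (red), shared (grey) and WT-only (blue) day 8 sites with a summit pileup of 7 to 12, split by whether the site was in both day 0 lists (left) or in neither (right). Shared sites are WT D8 peaks taken by their WT pileup. Bars are shares and whiskers 95% binomial intervals. AP-1 is at 26.8%, 19.5% and 15.5% on the left and between 7.37% and 7.79% on the right.

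The second question was how sites open in both genotypes compared in strength. There were 34702 such WT D8 peaks, each set against the strongest HY D8 peak overlapping it. Of these, 30583 (88.1%) matched 1 HY peak that matched no other. Over all 34702 sites the strength ranks followed each other. The Spearman correlation across sites was 0.783 for −log10 q, 0.872 for summit pileup and 0.760 for fold enrichment. Sites share their library and are not replicates, so no p is given. The summits lay a median of 34 bp apart. The depth-scaled pileup of HY was a median of 1.13 times that of WT. The log2 ratio had an SD of 0.44 over sites, from 0.50 in the weakest of 10 groups by WT rank to 0.19 in the strongest. Counting error alone at a typical (median) site would give an SD of 0.50, so the spread over all sites was not wider than this.

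**Figure D3:**
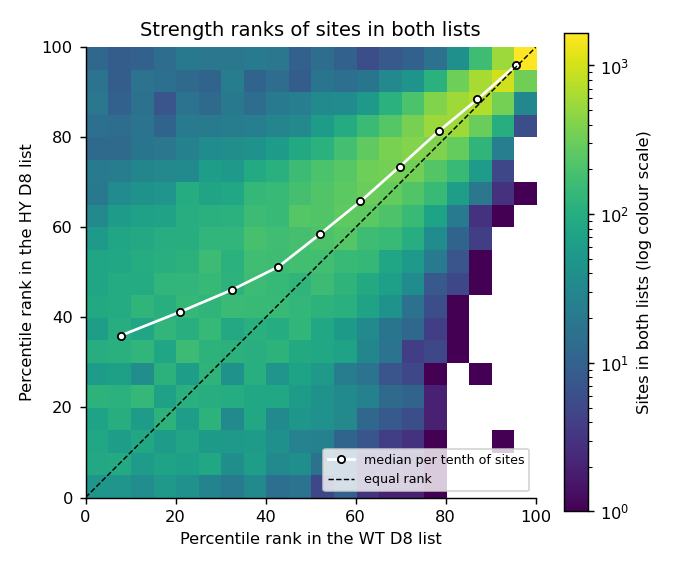
Percentile rank of the 34702 sites in both lists within the WT D8 list (x axis) and the HY D8 list (y axis); colour gives the number of sites per bin on a log scale, white points the medians of 10 equal groups of sites by WT rank, the dashed line equal rank. The lowest group has median ranks of 7.78 in WT and 35.9 in HY, the highest of 95.7 and 96.1.

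Median ranks of strong sites were close, while their spread depended on which list formed the groups. In the strongest of 10 groups by WT rank the median rank was 95.7 in WT and 96.1 in HY, and in the strongest of 10 by HY rank it was 95.3 and 96.7. The 95th percentile of the rank shift from WT to HY was 3.72 in the former and 53.7 in the latter. The counting interval left out the median ratio at 0.288% and 8.24% of sites. Several WT peaks could be matched to the same HY peak, and each then entered the groups by HY rank with the rank of that peak. How much of the wider spread came from such matches was not tested. At the weak end the direction depended on the grouping, with 7.78 in WT and 35.9 in HY in the weakest group by WT rank, and 22.9 and 16.0 in the weakest by HY rank. The lists also differ in length, so the rank shifts given below depend in part on the lists, and pileups are given beside them.

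At least 2-fold higher in HY were 1410 sites (4.06%) and at least 2-fold lower 162 (0.467%). With the median ratio set to 1 the numbers were 877 and 355, and without depth scaling 1192 and 333. The counting interval of the ratio lay above the median ratio at 743 sites (2.14%) and below it at 113 (0.326%). Higher sites were mostly those where peaks were split. Several WT peaks under 1 HY peak were each scored against its full summit. Of several HY peaks over 1 WT peak only the strongest counted. The direction of matching thus favoured higher ratios in split matches, and their excess is not read as a difference between the genotypes. Where a match involved more than 1 peak on a side, 672 of 4119 sites were above and 4 below, and where it was 1 peak to 1 peak, 71 of 30583 (0.232%) were above and 109 (0.356%) below. The 743 sites had a median width of 144 bp in WT and 762 bp in HY. In 1-to-1 matches 533 sites were at least 2-fold higher and 161 lower. The rank rises and falls named below are 1-to-1 matches.

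The lower sites included some MHC class I promoters on chromosome 17. At H2-Q7 the summit pileup was 41 in WT D8 against 8 in HY D8, a depth-scaled ratio of 0.210 (0.0849 to 0.453), and its rank dropped from 93.2 to 13.1, the largest drop among 1-to-1 matches. H2-Q6 had 26 and 7 (ratio 0.289, 0.106 to 0.684) and H2-Q8 20 and 6 (0.322, 0.106 to 0.832). On day 0 the pileups were 34 in WT and 15 in HY at H2-Q7 (ratio 0.411, 0.208 to 0.775), 25 and 13 at H2-Q8 (0.484, 0.227 to 0.983) and 15 and 9 at H2-Q6 (0.559, 0.216 to 1.36, which includes 1). The H2-T24 promoter described above was called in WT D8 alone and was likewise the lower one in HY on day 0 (ratio 0.254, 0.107 to 0.542). The promoters of other class I genes showed less or the reverse. Day 8 pileups in WT and HY were 35 and 25 at H2-Q4, 51 and 37 at H2-K1, 46 and 39 at H2-K2, 34 and 30 at H2-D1, 21 and 17 at H2-T23, 12 and 10 at H2-T22, 13 and 9 at H2-T10 and 11 in both at H2-M3, and the intervals of these ratios included the median ratio. A WT-only peak (13) also lay in the H2-K1 promoter window, 0.167 kb from a HY peak. The H2-Q10 promoter had a peak in HY D8 alone (6). The promoters of H2-Q6, H2-Q7 and H2-Q8 are near copies, so that how reads were divided among them is uncertain. The stretches upstream of their starts are printed on the plus strand of mm9 (chr17:35561645-35561754, chr17:35575989-35576098 and chr17:35530894-35531003). Capitals mark bases of H2-Q6 and H2-Q8 that differ from H2-Q7, and bases of H2-Q7 that differ from H2-Q6.

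H2-Q6: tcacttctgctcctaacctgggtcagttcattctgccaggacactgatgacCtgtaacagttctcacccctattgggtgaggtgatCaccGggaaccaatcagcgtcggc

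H2-Q7: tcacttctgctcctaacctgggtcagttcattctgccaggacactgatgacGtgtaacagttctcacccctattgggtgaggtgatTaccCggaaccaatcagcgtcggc

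H2-Q8: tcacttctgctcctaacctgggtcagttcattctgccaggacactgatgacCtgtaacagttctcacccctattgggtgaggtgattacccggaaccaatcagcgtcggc

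Of 110 aligned bases H2-Q6 and H2-Q7 share 107, H2-Q6 and H2-Q8 108, and H2-Q7 and H2-Q8 109.

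Several sites around the Iroquois genes Irx2 and Irx1 on chromosome 13 were weaker in HY D8 or called in WT D8 alone. Homeobox factors of this family pattern tissues in the embryo. The Irx2 promoter had a pileup of 57 in WT D8 against 16 in HY D8, a ratio of 0.302 (0.162 to 0.532), while on day 0 it had 65 in WT and 57 in HY, a ratio of 0.817 (0.562 to 1.18). WT-only peaks stood beside that promoter (pileup 19, 0.250 kb from the HY peak), at 7.53 kb from the start (15) and at the upstream site whose sequence is printed above (15). The site at 7.53 kb lay 0.081 kb from a HY-only peak with a pileup of 5, and the day 0 peak over both had 33 in WT and 21 in HY. At Irx1 WT-only peaks stood in an intron (18, 0.784 kb from a HY peak) and an exon (12, 0.402 kb from one). The exon site had a peak of 13 in HY D0 and none in WT D0. The Irx1 promoter itself had 15 in WT D8 and 12 in HY D8 (ratio 0.859, 0.367 to 1.97). Some other sites of the region were not weaker in HY D8. Among them were the shared sites at 314.6 kb (11 and 12, ratio 1.17, 0.473 to 2.93) and 293.6 kb (19 in both, 1.07, 0.538 to 2.14) from the Irx1 start. HY-only peaks stood at 41.6 kb from Irx1 (7) and at -100.1 kb from Irx4 (5). These sites, H2-Q8 and Fam189a1 were singled out after their values were seen.

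Other large rank drops were single sites. Zim1, an imprinted zinc finger gene, had a promoter pileup of 18 in WT D8 against 4 in HY D8 (ratio 0.239, 0.0588 to 0.725), and 29 and 22 on day 0. Fetub, a gene of the fetuin family, had 17 and 4 (0.253, 0.0619 to 0.775), and 13 and 18 on day 0. A site on chromosome 5 at -26.0 kb from the start of the receptor kinase gene Adrbk2 had 22 and 5, and an intronic site of Plxna2, a semaphorin receptor gene, 16 and 6. The last of these has an interval of 0.129 to 1.08, which includes 1 but lies below the median ratio of 1.13. The remaining drops were in an intron of Tmem135 (15 and 4), at the promoter of 5730507C01Rik (17 and 5), beyond Sox9 (16 and 5) and in Cdh2 (22 and 9).

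Among the rises, the Fam189a1 intron printed above went from a pileup of 8 in WT D8 to 35 in HY D8, a ratio of 4.70 (2.14 to 11.7), and on day 0 it had no peak in WT and 9 in HY. It held an AP-1 match. A site 12.6 kb from Mir21, the gene of a microRNA raised in many stressed and tumour tissues, went from 10 to 31 (ratio 3.33, 1.59 to 7.61), with 60 and 54 on day 0. The promoter of St3gal6, a sialyltransferase gene, went from 8 to 27 (3.63, 1.60 to 9.23), with no peak on day 0. A site near Cdk17 went from 7 to 23, one near the HDL receptor gene Scarb1 from 7 to 21 and one in an intron of the acetyltransferase gene Myst3 from 6 to 17. The promoter of Gabarapl1, an autophagy gene, went from 8 to 21, and that of Dpp7, a dipeptidyl peptidase gene, from 7 to 19. The other 3 of the 10 largest rises were the promoter of 6430531B16Rik (7 to 21), a site in an exon of Ddx6 (8 to 19) and one nearest to Chd7 (6 to 18). The interval of the Ddx6 site, 1.07 to 6.74, included the median ratio.

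Across the genes lists were read against the background shares. Within 50 kb of an annotated start of any protein-coding gene 27.9% of HY D8 peaks were HY-only and 13.3% of WT D8 peaks WT-only. Around 20 progenitor genes, which mark preadipocytes and stromal cells, 34 of 100 HY D8 peaks were HY-only (34.0%, 24.8% to 44.2%) and 7 of 79 WT D8 peaks WT-only (8.86%, 3.64% to 17.4%). Around 20 adipocyte genes the shares were 47 of 231 (20.3%, 15.3% to 26.1%) and 25 of 218 (11.5%, 7.56% to 16.5%). Both intervals of the progenitor list included the background, while the interval of the HY-only share of the adipocyte list lay below it. Within 10 kb, where the background was 22.4%, the adipocyte share was 20.5% (12.6% to 30.4%), an interval that included it. Around 20 thermogenic genes the shares were 21.7% (15.2% to 29.3%) and 16.4% (10.6% to 23.8%), around 20 regulators of mitochondrial biogenesis 18.3% (12.3% to 25.7%) and 13.99%, and around 21 enzymes and readers of H3K9 methylation 20.8% (14.7% to 28.0%) and 14.7%. The interval of the HY-only share of the mitochondrial list also lay below the background, and those of the other 2 lists included it. Within 10 kb the mitochondrial share was 15.4% (6.88% to 28.1%), which included the background there. The thermogenic and H3K9 shares lay above it, at 31.1% (18.2% to 46.6%) and 25.4% (15.5% to 37.5%), with intervals that included it, so their side of the background depended on the distance. The other lists gave 6 of 24 HY D8 and 6 of 26 WT D8 peaks for skeletal muscle, 10 of 28 and 3 of 21 for endothelium, 6 of 43 and 4 of 42 for macrophage, and 6 of 19 and 0 of 14 for neuron.

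**Figure D4:**
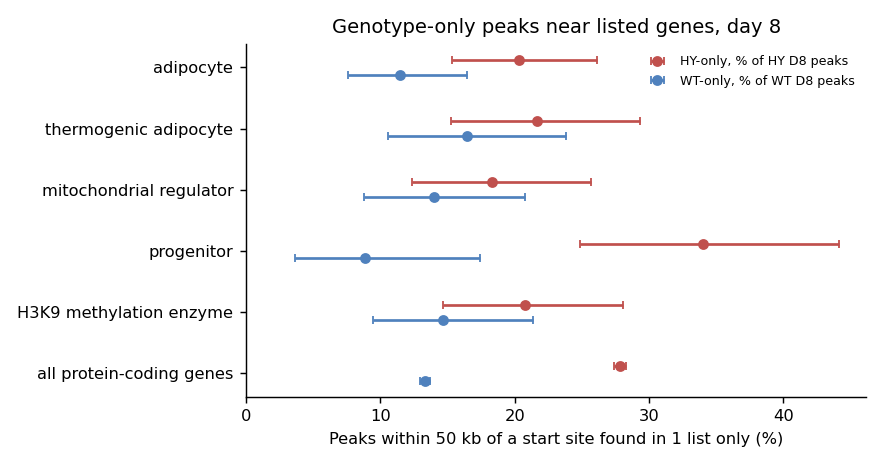
Share of day 8 peaks within 50 kb of an annotated start that were found in 1 list only (x axis, %), for 5 gene lists and all protein-coding genes, as a share of HY D8 peaks (red) and WT D8 peaks (blue); whiskers are 95% binomial intervals. The progenitor list has the widest gap, 34.0% against 8.86%.

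Promoter peaks of fat cell genes had similar pileups in both genotypes. Of the 20 adipocyte promoters 19 had a peak in both libraries, with a median ratio of 1.10 against 1.11 over all 11006 protein-coding genes with both. The interval of 1 of the 19 lay above the median ratio of all sites and none below, against 28 above and 36 below of the 11006. The 1 was Gpd1, a glycerol phosphate dehydrogenase gene, with 24 in WT D8 and 44 in HY D8 (ratio 1.97, 1.17 to 3.39). The master regulator Pparg had 37 and 39, Cebpa 57 and 61, the lipase gene Lipe 60 and 67, and the glucose transporter gene Slc2a4 43 in both. Klf15, a transcription factor gene, had a promoter peak in HY D8 alone (16), with 13 in WT D0 and 10 in HY D0.

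Of the 20 thermogenic promoters 11 had a peak in both libraries, 2 in HY D8 alone and 7 in neither, and the intervals of all 11 ratios included the median ratio. Cidea, a lipid droplet gene of brown fat, had 9 in WT D8 and 13 in HY D8 (ratio 1.55, 0.614 to 4.11), Ppargc1a 14 and 15, Ppargc1b 23 in both and Ppara 35 and 45 (1.38, 0.868 to 2.21). The last 3 encode coactivators and a nuclear receptor that drive oxidative metabolism. Prdm16, the beige fate regulator, had 11 and 12, and Cpt1b, a carnitine palmitoyltransferase gene, 27 and 18 (0.716, 0.372 to 1.35). The promoter of Adrb3, the β3-adrenergic receptor gene, held a peak in HY D8 alone (13), as did that of Acot11 (8). The promoters of Ucp1, Dio2 and Cox8b held no peak in any library.

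All 20 mitochondrial regulators had a promoter peak in both day 8 libraries, with ratios from 1.05 to 1.72, and every interval included the median ratio. Esrra had 57 and 58, Tfam, the mitochondrial DNA packaging factor, 33 and 34, and Gabpa 57 and 64. Of the 21 genes of H3K9 methylation 20 had a peak in both. Kdm3a itself, on chromosome 6, had a promoter pileup of 53 in WT D8 against 60 in HY D8 (ratio 1.22, 0.826 to 1.79), and 67 and 84 on day 0, so that the mutated gene's promoter was open in both lines. Jmjd1c, its paralog, had 17 and 32 (2.02, 1.09 to 3.88, an interval that included the median ratio) and the H3K9 methyltransferase gene Setdb1 18 and 21. Of the 20 progenitor promoters 14 had a peak in both, among them Pdgfra (36 and 37) and Zfp423 (22 and 29), whose product commits cells to the fat lineage.

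The enhancer sites of thermogenic genes that the study followed by ChIP-qPCR, and its control region at Prdx5, were located from their primers, and a peak within 500 bp was taken. Of the 8 enhancer sites 7 had a peak in both day 8 libraries. The site at -37.6 kb from the Ppargc1b start had 43 in WT D8 and 39 in HY D8 (summit pileups, ratio 0.974, 0.615 to 1.54) and that at -48.3 kb 28 and 29. The sites upstream of Ppargc1a had 14 and 12 at -300.4 kb, 9 and 10 at -258.8 kb, and 27 and 38 at -28.1 kb (1.51, 0.899 to 2.58), distances being taken to the nearest annotated start. The Ucp1 enhancer at -4.65 kb had 10 and 11 (1.18, 0.456 to 3.10) and the Ppara site at -10.2 kb 20 and 21. The Cidea site at -13.5 kb had 10 in WT D8 and no peak in HY D8, and the Prdx5 control region had no peak in any library. On day 0 the Ppargc1a site at -28.1 kb had 13 in WT and 26 in HY, the Ppargc1b site at -48.3 kb 11 and 12, and no other site had a peak. The intervals of all 7 ratios included the median ratio, and at pileups near 10 a ratio of 2 was not detectable.

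The number of HY-only peaks varied among genes. By nearest protein-coding start they fell to 7473 genes, of which 41 had 10 or more, while WT-only peaks fell to 3993 genes and none had 10 or more. Myc, the growth regulator, had the most, 39 of its 77 HY D8 peaks, spread over 1.42 Mb of chromosome 15, where WT D8 had 40 peaks. Their pileups ran from 4 to 22 with a median of 9.0, and 17 of the 39 overlapped a HY D0 and 15 a WT D0 peak. Auts2 followed with 22 of 26, where WT D8 had 4 peaks, HY D0 21 and WT D0 13, and 10 of the 22 had a −log10 q of 5 or more. Its promoter peak (17) was itself HY-only, with 15 (WT) and 12 (HY) on day 0. The transcription factor genes Foxp1 (15 of 25), Ebf1 (15 of 39), which acts early in fat cell formation, and Runx1t1 (14 of 22) were among the 10 genes, with Zmiz1 (19 of 49), Slc24a3 (19 of 32), Pard3 (18 of 33), 1700112E06Rik (14 of 23) and 3930402G23Rik (14 of 31). Ties at 14 were broken by the summed −log10 q. Against the HY-only share of 30.4% over all HY D8 peaks, the intervals of Zmiz1 (25.2% to 53.8%), Ebf1 (23.4% to 55.4%) and 3930402G23Rik (27.3% to 64.0%) included it.

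The genes with most WT-only peaks had fewer. Over all WT D8 peaks 13.7% were WT-only. Jazf1, a zinc finger gene, had 9 of its 18 WT D8 peaks and Abr 9 of 17. Pde4d, a cAMP phosphodiesterase gene, had 8 of 32 beside 13 HY-only peaks of 37. Rgs3 (7 of 18) had 7 HY-only peaks of 18 HY D8 peaks beside them, Ppap2b (7 of 29) 6 of 28 and Arhgap26 (7 of 23) 10 of 26. Col4a2 (7 of 23), Frmd4a (6 of 17), Ly86 (6 of 26) and Ccrn4l (6 of 15) made up the 10. HY-only peaks were fewest at Abr (1 of 9) and Jazf1 (2 of 11). The WT-only intervals of Pde4d (11.5% to 43.4%), Col4a2 and Arhgap26 (both 13.2% to 52.9%), Ppap2b (10.3% to 43.5%) and Ly86 (8.97% to 43.6%) included the overall share. Genes were chosen by these counts, which are therefore a description.

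By chromosome 3 stood apart in the strength of shared sites, on both days. On chromosome 12 the median log2 ratio of HY to WT, relative to all sites, was -0.23 on day 8 and -0.20 on day 0. On day 0 it was -0.003 before 50 Mb and -0.32 from there on. On chromosome 14 it was 0.17 and 0.13, and on chromosome 15 0.10 and 0.09. The other 16 lay between -0.08 and 0.05 on day 8 and between -0.03 and 0.03 on day 0. The local background of the same sites moved likewise, at -0.12 (log2) on chromosome 12, 0.32 on chromosome 14 and 0.28 on chromosome 15, against 0.00 to 0.14 on the others. The share of HY-only peaks was 24.4% on chromosome 12, 37.2% on chromosome 14 and 32.7% on chromosome 15, against 27.1% to 34.3% on the others. Myc lies on chromosome 15, and Zmiz1 and 1700112E06Rik on chromosome 14. Their part in the counts of these genes was not tested. Without these 3 chromosomes HY-only peaks were 30.2% and WT-only peaks 13.8%.

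**Figure D5:**
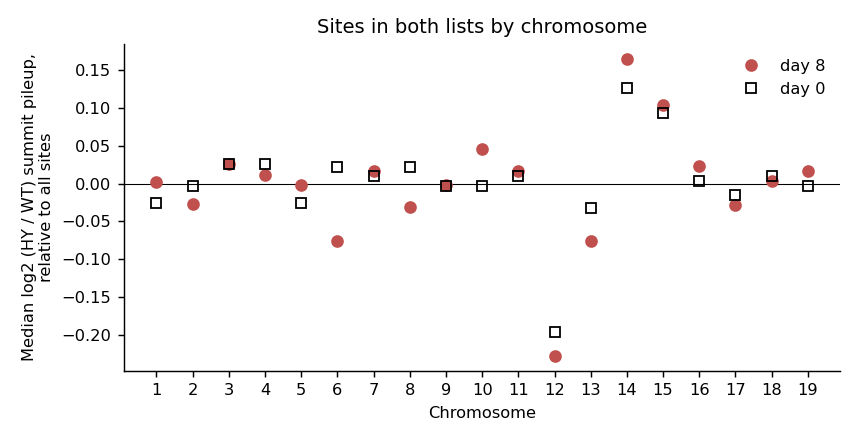
Median log2 ratio of HY to WT summit pileup over sites in both lists, relative to the median of all sites (y axis), by chromosome (x axis), on day 8 (filled circles) and day 0 (open squares). Chromosome 12 lies at -0.23 and -0.20, chromosome 14 at 0.17 and 0.13.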

How the data were processed

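The 4 libraries (1 per genotype and day) were immortalised cells profiled with an ATAC-seq kit. The submitters' processing notes name Bowtie2, SAMtools, Picard and deepTools and the mm9 build. The study's methods add adapter trimming, duplicate removal and peak calling as in its ChIP-seq analysis, with MACS among its software. Peak caller settings and any shift for the transposase cut are not given in the sources used here, and such a shift would move summits by a few bases. The deposited peak lists give a fold enrichment (a ratio over local background), −log10 p and −log10 q values and a display score, all made by the authors; read counts were not used here. Whole-number summit pileups and backgrounds were solved from the deposited fold and −log10 p, to within 0.002 in −log10 p for 100% of peaks, with the lowest background as the depth. This assumes a fold of MACS form (1 added to pileup and background) and a Poisson p, which no source used here states for these lists. The solver and the overlap rules were tested on simulated data.

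Peaks on chromosomes 1 to 19 were matched by 1 bp. Annotation was GENCODE vM1 on NCBIM37, the assembly of mm9. Shares carry exact (Clopper-Pearson) binomial intervals and pileup ratios exact conditional binomial intervals. PCR reads are not independent molecules, so these cover counting error only. Analyses used Python 3.11.15, numpy 2.4.6, pandas 2.3.3, scipy 1.17.1, pysam 0.24.0 and Biopython 1.88. Where a library had a promoter peak only through the edge of the window, the overlapping peak of the other library was used. The members, gene lists and motifs were chosen with earlier results of these data known. Named were the 10 strongest peaks of each class, the 10 largest rank rises and falls among 1-to-1 matches, the 10 genes with most peaks of each class, the list genes, the primer sites and Kdm3a; other names were chosen after their values were seen. Alternatives are in the closing section.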

Additional observations from a re-analysis of the deposited data

Results flagged for a closer look

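Several contrasts between HY and WT had opposite signs on day 8 and day 0, with 1 library each, and the difference between the days was not tested. The exon share of peaks differed (HY minus WT) by -0.0885 percentage points on day 8 and by 0.0921 on day 0. The median fold enrichment differed by -0.268 on day 8 and 0.147 on day 0, and the median −log10 q by -0.897 and 0.681. The relative log2 ratio of shared sites was 0.00205 on chromosome 1 (-0.026 on day 0), -0.0759 on chromosome 6 (0.0223), -0.0316 on chromosome 8 (0.0225), 0.0452 on chromosome 10 (-0.00328) and 0.0172 on chromosome 19 (-0.00328). Outside the chromosomes compared, the HY D8 list held 6 peaks on chromosome Y and the WT D8 list 1.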

How the results depend on the processing

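The direction of the excess of HY-only over WT-only peaks was the same, in counts, under the overlap, strength, list length, distance and chromosome alternatives. HY-only peaks numbered 4332 at a −log10 q of at least 5 looked up in the full other list, 7421 with that minimum in both lists, 8939 with lists of equal length and 3846 at a pileup of at least 10. WT-only peaks numbered 1952 in the first of these and 2104 in the last, 12746 where 50% of both peaks had to be covered and 12514 where summits had to lie within 100 bp. The promoter share of HY-only peaks was 14.1% with 50% of the peak covered, 15.2% with 50% of both, 16.8% by summits, 12.95% and 14.1% with the q minimum in 1 or both lists, 11.7% with equal lists, 19.8% with a promoter window of 2000 bp upstream to 1000 bp downstream, 7.33% with no other peak within 500 bp and 10.2% at pileups of 7 to 12. That of WT-only peaks was 16.3%, 23.9% and 26.2% under the 3 overlap rules, 26.0% with the wide window, 10.4% with no other peak within 500 bp and 13.5% at pileups of 7 to 12. Sites at least 2-fold higher in HY numbered 877 with the median ratio set to 1, 682 by fold enrichment and 533 in 1-to-1 matches, and sites at least 2-fold lower 333 without depth scaling, 355 with the median set to 1 and 63 by fold enrichment. Sites with an interval above the median ratio numbered 71 in 1-to-1 matches. The rank correlation was 0.760 by fold enrichment, 0.872 by pileup and 0.831 in 1-to-1 matches. Within 10 kb the HY-only share near thermogenic genes was 31.1% (18.2% to 46.6%), against 22.4% near all protein-coding genes. With no other peak within 500 bp the HY-only share near mitochondrial regulators was 10.6% and the WT-only share near H3K9 methylation genes 9.33%. The causes of these shifts were not tested. The alternatives on chromosomes, on 500 bp and on pileup, and the 1-to-1 count of intervals, were chosen after seeing the data. No paired analysis was possible because each group is 1 library, and for the same reason no replicate could be left out. Depth limits single sites, since at pileups of 10 and 11 (the Ucp1 enhancer) the interval of the ratio ran from 0.456 to 3.10.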

Other observations

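The chromosome 12 difference was not uniform in time. From 50 Mb onward the median relative log2 ratio of shared sites was -0.23 on day 8 (980 sites) and -0.32 on day 0 (1499 sites), while before 50 Mb it was -0.21 on day 8 (397 sites) and -0.00 on day 0 (741 sites). The boundary was chosen after the values were seen and the difference between the days was not tested.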
